A study of Rattus norvegicus with 65 samples.

Results

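The genes described here are 10 direct targets of the transcription factor p53: Cdkn1a, Mdm2, Ccng1, Aen, Phlda3, Zmat3, Tp53inp1, Bbc3, Fas and Perp. They were taken by symbol, with every probe set that the platform annotation gives to that symbol alone, which gave 17 of 31099 probe sets and 10 of 14217 genes. They were read in the livers of 65 male Sprague-Dawley rats, 6 weeks old, with 1 Affymetrix array per rat. Each rat had received 1 of 10 liver carcinogens or belonged to a control group, and the study set out to tell genotoxic from nongenotoxic carcinogens by expression. The titles give a genotoxic set of 20 rats (2-AAF, 3MeDAB, DEN and a control), a nongenotoxic set of 21 rats (1,4-Dioxane, Clofibrate, DL-Ethionine and a control) and a test set of 24 rats (DCP, ME, SN and Urethane, with no control). Every compound has a long and a short group of 3 rats each, except DEN short with 2 rats, and each control has 3 rats.

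Short and long are labelled 3 and 72 hours, but the treatment text describes 3 administrations in the repeated groups and an autopsy a day later, so the words short and long are used. The labels of the test set give 1 administration in short groups and 3 in long groups, at doses (unit not given) of 50 for DCP and SN, 300 for ME and 500 for Urethane, and the controls carry no time, vehicle or number of doses. The compound names are those of the titles. Urethane and DL-Ethionine were given under their own names, and for DCP, ME, SN and DEN the design text lists full chemical names without pairing them with these letters. The lowest and highest values of the arrays did not overlap between the 3 sets, so the sets were normalized apart, and every comparison stays within a set or uses differences from the control of the same set. As a check of the tissue, none of 9 hepatocyte markers lay under the median of the table in all rats of any group. Against its control, 0 to 4 were called lower and 0 or 1 higher in a treated group. In these comparisons 0.075% to 23.5% of all genes were called lower and 0.0657% to 36.9% higher. In whole liver, fewer cells of a type and less RNA per cell cannot be told apart.

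In an unstressed cell p53 is kept low because Mdm2, its own target, marks it for degradation. Damage to DNA activates kinases that free p53 from Mdm2, and the protein then binds paired half-sites in or near its target genes and raises their transcription. The targets include genes that stop the cell cycle (Cdkn1a), that feed back on p53 (Mdm2, Ccng1), that promote cell death (Aen, Bbc3, Fas, Perp) and that modulate survival signalling, RNA and autophagy (Phlda3, Zmat3, Tp53inp1). In liver, Cdkn1a, Mdm2 and Ccng1 are widely used as readouts of DNA damage.

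Promoters (250 bases before to 50 after the annotated start) were held for 7 of the 10 genes in a RefSeq table on build GRCr8, and a script searched both strands for the p53 consensus site, made of a pair of half-sites with no spacer. The 3 promoters shown are those in which the site was met with the fewest mismatches. The capitals mark the matched 20 bases, and each sequence is read 5′ to 3′ on the strand of its gene.
Cdkn1a: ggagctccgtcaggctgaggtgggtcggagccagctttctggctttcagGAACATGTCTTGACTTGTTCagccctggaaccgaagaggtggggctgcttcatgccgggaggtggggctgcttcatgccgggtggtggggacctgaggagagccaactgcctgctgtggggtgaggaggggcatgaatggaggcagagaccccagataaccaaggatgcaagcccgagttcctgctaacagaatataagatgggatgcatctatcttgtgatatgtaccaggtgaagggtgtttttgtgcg
Ccng1: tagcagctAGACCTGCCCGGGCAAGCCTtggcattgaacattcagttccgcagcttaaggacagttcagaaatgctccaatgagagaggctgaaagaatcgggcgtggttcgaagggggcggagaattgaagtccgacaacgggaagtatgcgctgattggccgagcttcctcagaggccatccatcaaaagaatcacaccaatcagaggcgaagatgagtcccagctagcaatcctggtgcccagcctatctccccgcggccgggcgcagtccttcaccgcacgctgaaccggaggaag
Aen: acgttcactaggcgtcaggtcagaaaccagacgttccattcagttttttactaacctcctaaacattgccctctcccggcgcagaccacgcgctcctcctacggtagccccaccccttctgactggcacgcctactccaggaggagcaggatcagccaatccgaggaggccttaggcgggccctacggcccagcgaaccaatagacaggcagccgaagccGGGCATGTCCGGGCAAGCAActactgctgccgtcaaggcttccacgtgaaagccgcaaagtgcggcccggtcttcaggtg
The Cdkn1a window lies at chr20:7150682-7150981 on the plus strand, and its site, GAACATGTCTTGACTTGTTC, has 1 mismatch and begins 201 bases before the start. The Ccng1 window lies at chr10:25684827-25685126 on the minus strand, and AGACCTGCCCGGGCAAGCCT has 1 mismatch and begins 242 bases before the start. For Aen, at chr1:142224283-142224582 on the plus strand, GGGCATGTCCGGGCAAGCAA has 2 mismatches and begins 30 bases before the start. Among all 33469 promoters of that length, 0.0717% hold a site with 1 mismatch or none and 0.872% one with 2 or fewer. The best match had 4 mismatches in Phlda3 and 5 in Mdm2, Fas and Perp, which says only that these letters are not in this window. For each gene 1 annotated start was used, the first listed, and other starts were not searched. The start used for Cdkn1a, Aen and Mdm2 lies inside the annotated gene, so the distances hold for that start only. A match is a description of the sequence, and binding was not measured.

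All 10 genes were higher than control in each long group of the genotoxic set. A call here means an adjusted p (Benjamini-Hochberg) under 0.05 over the 10662 genes tested, and 16.5% of genes were called higher in 2-AAF long, 36.9% in 3MeDAB long and 10.5% in DEN long. The median log2 difference of the 10 genes was 2.22 in 2-AAF long, 2.90 in 3MeDAB long and 1.53 in DEN long, beside medians over all genes of 0.00, 0.14 and 0.00. The 3 comparisons share their control rats. Differences are given as log2 difference ± SE from a linear model across all genes. For every gene each treated rat lay above each control rat in these groups, as did 18%, 43.6% and 21.2% of all genes.

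**Figure D1:**
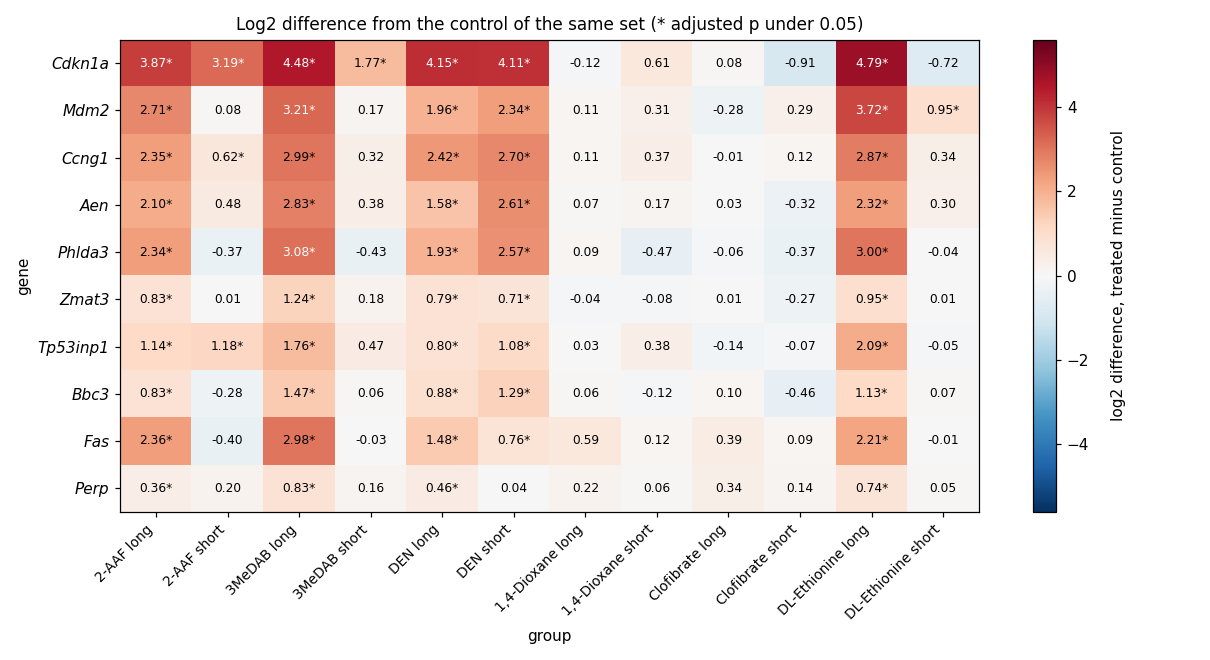
Log2 difference of each core p53 target (down the page) from the control of its set, in 6 genotoxic groups (left) and 6 nongenotoxic groups (right), with an asterisk where the adjusted p was under 0.05. The 3 genotoxic long groups and DL-Ethionine long carry 10 asterisks each, DEN short carries 9, and 1,4-Dioxane and Clofibrate carry none.

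Cdkn1a encodes p21, the inhibitor of cyclin-dependent kinases that stops the cell cycle. Its log2 signals were 11.75, 11.40 and 11.33 in 2-AAF long, 11.90, 12.15 and 12.26 in 3MeDAB long and 11.61, 11.80 and 11.92 in DEN long, against 6.38, 8.04 and 8.46 in the control. Control replicate 1 was the low rat there, 6.38 against at least 8.04 in its 2 group mates, and the treated groups lay at least 2.87 above the highest control rat. The log2 difference was 3.87 ± 0.43 in 2-AAF long (14.6-fold, adjusted p = 5.91e-08), 4.48 ± 0.43 in 3MeDAB long (22.2-fold) and 4.15 ± 0.43 in DEN long (17.8-fold). Without control replicate 1 these were 3.24 (9.46-fold), 3.85 (14.4-fold) and 3.52 (11.5-fold), each fold 1.54 times smaller, and all 3 were called.

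Mdm2 encodes the ubiquitin ligase that removes p53, and Ccng1 encodes cyclin G1, which recruits a phosphatase to Mdm2. Mdm2 stood at 10.70, 11.17 and 11.85 in 2-AAF long, 11.71, 11.80 and 11.73 in 3MeDAB long and 10.40, 10.31 and 10.78 in DEN long, against 8.44, 8.54 and 8.62 in the control. The 2-AAF rats were spread widely, with replicate 1 lowest and replicate 3 highest, and the 3MeDAB rats lay close together. Its difference was 2.71 ± 0.20 in 2-AAF long, 3.21 ± 0.20 in 3MeDAB long (9.27-fold, adjusted p = 2.27e-14) and 1.96 ± 0.20 in DEN long. Ccng1 stood at 11.92, 11.82 and 11.92 in 2-AAF long, 12.45, 12.62 and 12.50 in 3MeDAB long and 11.88, 11.94 and 12.04 in DEN long, against 9.72, 9.60 and 9.29 in the control. No treated rat overlapped a control rat for either gene, and the differences from control were 2.35 ± 0.15, 2.99 ± 0.15 and 2.42 ± 0.15 in the same order (adjusted p = 1.2e-13 in DEN long).

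Among the death effectors, Fas, the death receptor at the cell surface, had the widest range between compounds. Fas stood at 8.89, 9.42 and 9.60 in 2-AAF long, 10.02, 10.00 and 9.77 in 3MeDAB long and 8.57, 8.53 and 8.21 in DEN long, against 7.05, 7.04 and 6.75 in the control. The 3 treated groups did not overlap each other, and the differences were 2.36 ± 0.19, 2.98 ± 0.19 and 1.48 ± 0.19 (adjusted p = 6.41e-07 in DEN long). Aen, a nuclease that promotes apoptosis, rose by 2.10 ± 0.18, 2.83 ± 0.18 and 1.58 ± 0.18 in 2-AAF, 3MeDAB and DEN long. Bbc3, which encodes the BH3-only protein PUMA that activates the mitochondrial path of cell death, rose by 0.83 ± 0.17, 1.47 ± 0.17 and 0.88 ± 0.17. Perp, a membrane protein of desmosomes that p53 also uses in apoptosis, had the smallest differences of the 10 genes in these 3 groups, 0.36 ± 0.11 (adjusted p = 0.0152), 0.83 ± 0.11 and 0.46 ± 0.11. Its rats were at 10.42, 10.29 and 10.68 in 2-AAF long, against 9.93, 10.26 and 10.12 in the control, so the lowest 2-AAF rat lay 0.03 above the highest control rat. The 2-AAF call was lost without 2-AAF long replicate 3 (0.25, adjusted p = 0.127) or without control replicate 1 (0.27, adjusted p = 0.0974).

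Phlda3, an inhibitor of Akt survival signalling, stood at 10.91, 10.86 and 11.15 in 2-AAF long, 11.80, 11.63 and 11.72 in 3MeDAB long and 10.42, 10.52 and 10.76 in DEN long, against 8.39, 8.86 and 8.66 in the control. Its differences were 2.34 ± 0.16, 3.08 ± 0.16 and 1.93 ± 0.16 (adjusted p = 1.35e-10 in DEN long). Zmat3, a zinc finger protein that binds RNA, rose by 0.83 ± 0.12, 1.24 ± 0.12 and 0.79 ± 0.12. Tp53inp1, a stress protein that takes part in autophagy, rose by 1.14 ± 0.23, 1.76 ± 0.23 and 0.80 ± 0.23. All 6 control rats lay below the median of the table (6.22) in Tp53inp1, as did every rat of 1,4-Dioxane long, Clofibrate long, Clofibrate short and DL-Ethionine short, so the gene passed the filter on low values almost only through the groups in which it was high. It was above that median in 21 of 41 arrays, and its calls are not read as support, although it is included in the counts of the 10 genes throughout. The Tp53inp1 call in DEN long was lost without control replicate 3 (0.73, adjusted p = 0.0596).

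Markers of other cells were called in the same groups. Of all genes, 16.5% were called higher and 16.6% lower in 2-AAF long. These shares were 36.9% and 17.7% in 3MeDAB long and 10.5% and 6.56% in DEN long. Of 8 macrophage markers, 0 were higher and 5 lower in 2-AAF long, 6 were higher in 3MeDAB long and 5 were higher in DEN long. Their summed level was log2 12.78 to 13.23 in 2-AAF long, 13.87 to 14.25 in 3MeDAB long and 14.06 to 14.24 in DEN long, against 13.49 to 13.70 in the control. The part of those cells in the result was not tested. Of 6 leukocyte markers tested, 3 were higher and 1 lower in DEN long. Cela1, the 1 pancreas marker tested, was lower, at -0.76 in 2-AAF long, -2.16 in 3MeDAB long and -2.03 in DEN long. The other 3 pancreas markers lay below the median of the table in all rats of every group. Cela1 alone is therefore not read as a measure of pancreas cells, here or below. Of 3 bile duct markers tested, Epcam was higher by 0.97 in 2-AAF long and 0.91 in 3MeDAB long, Krt19 was lower in 2-AAF long (-0.81), and none was called in DEN long. Of 7 stellate and fibroblast markers, 3 were higher in each of the 3 long groups, and 2 were lower in 2-AAF long and in 3MeDAB long. The 3MeDAB long counts of these markers lay near the shares of all genes. The part of these cells was not tested either.

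The short groups of the genotoxic set differed in how many of the 10 genes were higher. In DEN short 9 were called higher, all but Perp, where 7.41% of all genes were called higher. In 2-AAF short 3 were called (Cdkn1a, Tp53inp1 and Ccng1; 4.42% of all genes), and in 3MeDAB short 1 was called (Cdkn1a; 0.263% of all genes). The DEN short and 2-AAF short counts include Tp53inp1, whose calls are not read as support. The median log2 difference of the 10 genes was 1.81 in DEN short, 0.17 in 3MeDAB short and 0.14 in 2-AAF short, and that of all genes was -0.03, -0.03 and -0.02.

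Cdkn1a was called in all 3 short groups. It stood at 11.16, 10.28 and 10.99 in 2-AAF short, 8.80, 9.45 and 9.93 in 3MeDAB short and 11.55 and 11.92 in DEN short, against 6.38, 8.04 and 8.46 in the control. No treated rat overlapped the control, and the lowest treated rat (3MeDAB short replicate 1) lay 0.34 above the highest control rat. The differences were 3.19 ± 0.43 (9.1-fold), 1.77 ± 0.43 (3.41-fold, adjusted p = 0.0394) and 4.11 ± 0.48 (17.3-fold). Without control replicate 1 the differences were 2.56 (5.9-fold) in 2-AAF short and 3.49 (11.2-fold) in DEN short, both called. The 3MeDAB short call was lost without 3MeDAB short replicate 2 or 3 and without control replicate 1 or 2, with a difference of 1.14 (adjusted p = 0.230) without control replicate 1, and with only the 2 groups fitted (adjusted p = 0.311).

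The feedback gene Mdm2 stood at 8.74, 8.46 and 8.64 in 2-AAF short, 8.93, 8.61 and 8.58 in 3MeDAB short and 10.94 and 10.80 in DEN short, against 8.44, 8.54 and 8.62 in the control. Both DEN rats lay at least 2.18 above the control rats, while the rats given the other compounds overlapped it. The differences were 0.08 ± 0.20 (95% interval -0.32 to 0.48), 0.17 ± 0.20 (95% interval -0.23 to 0.57) and 2.34 ± 0.22 (adjusted p = 5.07e-09). For Ccng1 the values were 10.28, 9.87 and 10.33 in 2-AAF short, 9.66, 10.24 and 9.67 in 3MeDAB short and 12.11 and 12.35 in DEN short, against 9.72, 9.60 and 9.29 in the control. Its 2-AAF short difference of 0.62 ± 0.15 (adjusted p = 0.00708) was lost without 2-AAF short replicate 3 (adjusted p = 0.0599) or control replicate 3 (adjusted p = 0.0605), and in DEN short it was 2.70 ± 0.16.

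DEN short also raised Aen by 2.61 ± 0.21, Phlda3 by 2.57 ± 0.18, Bbc3 by 1.29 ± 0.19, Tp53inp1 by 1.08 ± 0.26, Fas by 0.76 ± 0.21 and Zmat3 by 0.71 ± 0.13. Perp was at 10.24 and 10.05 in DEN short, against 9.93, 10.26 and 10.12 in the control (0.04 ± 0.13). With 2 rats in DEN short the call of Fas depended on replicate 2 (0.56 without it, adjusted p = 0.188) and on control replicate 3 (0.66, adjusted p = 0.0523), and that of Tp53inp1 on replicate 3 (0.92, adjusted p = 0.0799). In 2-AAF short, Tp53inp1 stood at 7.72, 6.75 and 7.07, against 6.01, 6.14 and 5.86 in the control, a difference of 1.18 ± 0.23 (adjusted p = 0.00121) with replicate 1 well above its group mates. In DEN short 1 of 8 macrophage, 2 of 5 endothelial and 1 of 7 stellate and fibroblast markers were lower and none was higher, while of the bile duct markers Epcam was higher (0.92) and Krt19 lower (-0.81). Of all genes, 10.7% were called lower there and 7.41% higher. Krt19 was also lower in 2-AAF short (-1.05) and 3MeDAB short (-0.93), and the part of these cells was not tested. Some genes were below control on average without passing the test: Phlda3, Fas and Bbc3 in 2-AAF short (-0.37 ± 0.16, -0.40 ± 0.19 and -0.28 ± 0.17) and Phlda3 in 3MeDAB short (-0.43 ± 0.16). In Bbc3 all 3 rats of 2-AAF short lay below the control rats.

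**Figure D2:**
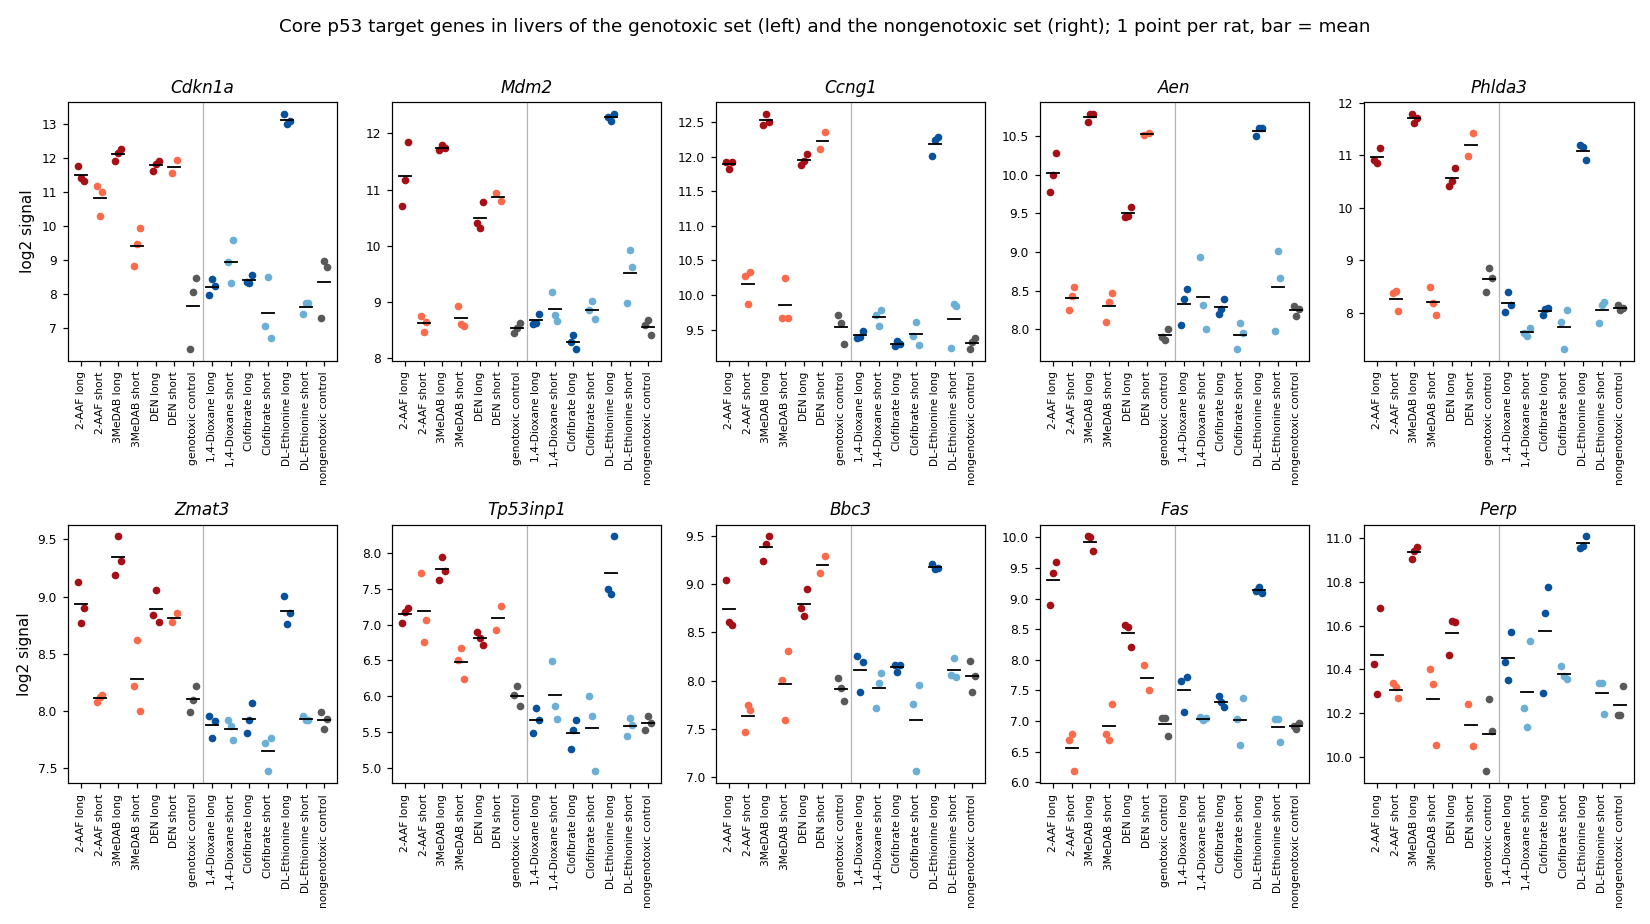
Log2 signal of each gene (1 panel per gene, vertical axis) in every rat of the genotoxic set (red, dark for long and light for short) and the nongenotoxic set (blue, likewise), with controls in grey, 1 point per rat and a bar at the group mean. In Mdm2, Aen and Phlda3 the 2 DEN short rats lie with the long groups, while the 2-AAF and 3MeDAB short rats lie near the control.

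Long and short groups were then compared within each compound, a comparison that uses no control. In 3MeDAB all 10 genes were higher in the long group (41% of all genes), and in 2-AAF 7 were (18.8% of all genes), all but Cdkn1a, Tp53inp1 and Perp. In DEN 2 were higher in the long group, near the share of all genes (19%), and 2 were lower (11.9% of all genes). Phlda3 was higher in the long group by 3.51 ± 0.16 in 3MeDAB and 2.70 ± 0.16 in 2-AAF, and lower in DEN (-0.64 ± 0.18, adjusted p = 0.00587). Aen was lower in DEN long, 9.45, 9.46 and 9.59 in the long rats against 10.52 and 10.55 in the short rats, a difference of -1.03 ± 0.21. Fas (0.73 ± 0.21) and Perp (0.42 ± 0.13) were higher in DEN long. Of these 4 DEN calls, those of Phlda3, Fas and Perp were lost without DEN short replicate 3, and Aen was called in each refit with 1 rat left out. Of 8 macrophage markers, 7 were higher in 3MeDAB long and 8 in DEN long than in the short group, and 2 were lower in 2-AAF long (18% of all genes), and their part in the result was not tested.

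Cdkn1a and Mdm2, the arrest gene and the feedback gene, are set side by side here. Cdkn1a differed between long and short by 0.68 ± 0.43 in 2-AAF (adjusted p = 0.22), 2.71 ± 0.43 in 3MeDAB and 0.04 ± 0.48 in DEN. Mdm2 differed by 2.62 ± 0.20, 3.04 ± 0.20 and -0.38 ± 0.22 in the same order. Whether the long minus short difference itself varied between compounds was tested as an interaction. It was lower in DEN than in 2-AAF for 7 genes (11.1% of all genes), lower in DEN than in 3MeDAB for 9 genes (26.2%) and lower in 2-AAF than in 3MeDAB for 6 genes (27.8%), and higher for none of the 10 in any of the 3 tests by limma, also at an unadjusted p under 0.05. The widest was Phlda3 in DEN against 3MeDAB, at -4.15 ± 0.24 (adjusted p = 7.42e-14).

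**Figure D3:**
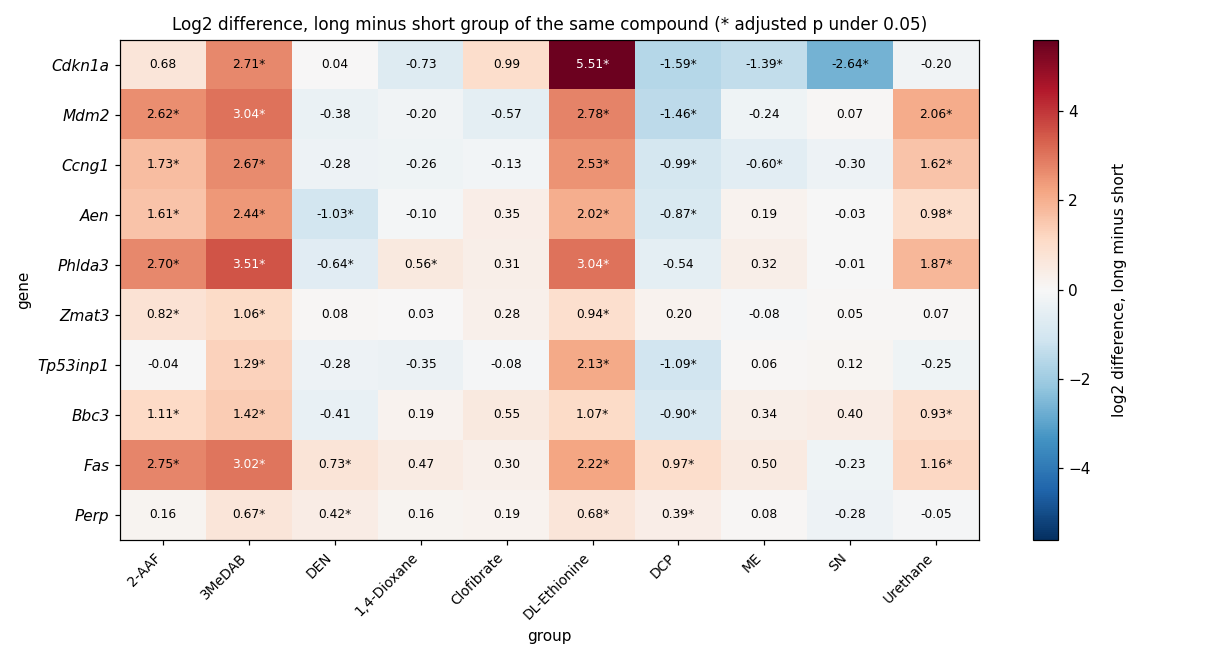
Log2 difference of the long minus the short group of each compound (across) for each gene (down the page), with an asterisk where the adjusted p was under 0.05. 3MeDAB and DL-Ethionine are positive in all 10 genes, whereas DCP is negative in 7 genes, 6 of them with an asterisk.

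The genotoxic compounds were also set against each other at the same duration, in 6 pairs, with p-values adjusted over all genes within each pair. The 2 short pairs with DEN had 7 genes higher in DEN than in 2-AAF (4.29% of all genes) and 8 higher than in 3MeDAB (7.76%), led by Phlda3 at 2.94 ± 0.18 and 3.00 ± 0.18. Between 2-AAF and 3MeDAB short none of the 10 was called by limma (1.82% of all genes were called either way). At an unadjusted p under 0.05, 3 were higher in 2-AAF (Cdkn1a, Tp53inp1 and Ccng1), and 1549 of all 10662 genes lay under it either way. Cdkn1a differed there by 1.42 ± 0.43 (95% interval 0.54 to 2.29, unadjusted p = 0.00239, adjusted p = 0.0815), and both Cdkn1a (1.68, adjusted p = 0.0352) and Tp53inp1 (0.92, adjusted p = 0.0262) were called without 2-AAF short replicate 2. In the long groups 9 genes were lower in DEN than in 3MeDAB (33.6% of all genes), 4 were lower in DEN than in 2-AAF (15%), and 9 were lower in 2-AAF than in 3MeDAB (35.1%). Cdkn1a was the 1 gene not called in the DEN against 3MeDAB pair (-0.33 ± 0.43) and in the 2-AAF against 3MeDAB pair (-0.61 ± 0.43). Fas had the widest difference in both pairs with DEN, -1.50 ± 0.19 against 3MeDAB and -0.87 ± 0.19 against 2-AAF. Of the 4 DEN against 2-AAF calls, 1 (Fas) was left without 2-AAF long replicate 3 or with only the 2 groups fitted, and 2 were left without 2-AAF long replicate 2 or without DEN long replicate 1 or 2. The median difference of all genes was -0.10 in DEN and -0.16 in 2-AAF against 3MeDAB long, where the narrowest called difference of the 10 genes was -0.37 in DEN (Perp) and -0.41 in 2-AAF (Zmat3).

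In the nongenotoxic set, 1,4-Dioxane and Clofibrate left the 10 genes without a call. Clofibrate activates the nuclear receptor PPAR alpha, and DL-Ethionine is the ethyl analogue of methionine. None of the 10 was called by limma in 1,4-Dioxane long, 1,4-Dioxane short, Clofibrate long or Clofibrate short, where 0.169%, 5.75%, 0.141% and 3% of all genes were called either way. At an unadjusted p under 0.05, 1 gene was higher in 1,4-Dioxane long (Fas, 0.59), 1 higher and 1 lower in 1,4-Dioxane short (Ccng1 and Phlda3), 2 higher in Clofibrate long (Fas and Perp) and 4 lower in Clofibrate short (Cdkn1a, Phlda3, Zmat3 and Bbc3). In the same order of groups, 1016, 2200, 993 and 1774 of all 10662 genes lay under that threshold, either way. Bbc3 was called in Clofibrate short without replicate 3 (-0.64, adjusted p = 0.0464). Mdm2 stood at 8.60, 8.62 and 8.79 in 1,4-Dioxane long and 8.28, 8.41 and 8.16 in Clofibrate long, against 8.59, 8.67 and 8.42 in the control. The 95% interval of its difference was -0.29 to 0.51 in 1,4-Dioxane long and -0.67 to 0.12 in Clofibrate long. That of Ccng1 was -0.19 to 0.41 and -0.31 to 0.29, and that of Phlda3 was -0.23 to 0.41 and -0.39 to 0.26. Cdkn1a varied more, with 8.92, 8.30 and 9.59 in 1,4-Dioxane short and 7.05, 8.50 and 6.70 in Clofibrate short, against 7.27, 8.95 and 8.77 in the control, so its intervals were wide (-0.27 to 1.48 and -1.79 to -0.04). Between long and short, Phlda3 was higher in 1,4-Dioxane long by 0.56 ± 0.16 (adjusted p = 0.0336, 1 of 10 genes beside 3.2% of all genes). None of the 10 was called between Clofibrate long and short by limma (3.55% of all genes either way), where 3 were higher (Cdkn1a, Zmat3 and Bbc3) and 1 lower (Mdm2) at an unadjusted p under 0.05, and Bbc3 was called without Clofibrate short replicate 3 (0.73, adjusted p = 0.0129). Of all 10662 genes, 1669 lay under that unadjusted threshold there, either way. For Phlda3 the 1,4-Dioxane short rats lay below the control, and the call was lost without any of 5 of the 6 rats (adjusted p up to 0.193).

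DL-Ethionine long raised all 10 genes (30.7% of all genes were higher), with a median log2 difference of 2.27. Cdkn1a stood at 13.30, 13.00 and 13.08 in DL-Ethionine long, against 7.27, 8.95 and 8.77 in the control, a difference of 4.79 ± 0.43 (27.8-fold, adjusted p = 6.5e-11). Mdm2 stood at 12.29, 12.21 and 12.35, against 8.59, 8.67 and 8.42 in the control, a difference of 3.72 ± 0.20 (13.2-fold, adjusted p = 2.72e-16). No rat of the 2 groups overlapped, and control replicate 1 was again low in Cdkn1a. Phlda3 rose by 3.00 ± 0.16, Ccng1 by 2.87 ± 0.15, Aen by 2.32 ± 0.18, Fas by 2.21 ± 0.19, Tp53inp1 by 2.09 ± 0.23, Bbc3 by 1.13 ± 0.17, Zmat3 by 0.95 ± 0.12 and Perp by 0.74 ± 0.11. Against the mean of 1,4-Dioxane long and Clofibrate long, which leaves the control out, all 10 were higher too (35.5% of all genes), with Cdkn1a at 4.82 ± 0.37. In the short groups that comparison called 1 gene, Mdm2 (0.65 ± 0.17; 1.3% of all genes), and 0 without any of 7 of the 9 rats, 2 without 1,4-Dioxane short replicate 1 and 3 without DL-Ethionine short replicate 1.

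Markers of other cells were called in DL-Ethionine long as well, where 30.7% of all genes were called higher and 23.5% lower. All 8 macrophage markers were higher, with a summed level of log2 14.47 to 14.81 in DL-Ethionine long, against 12.93 to 13.26 in the control. Of 6 leukocyte markers tested 3 were higher, of 5 endothelial markers 4 were higher, and Cela1 was lower (-3.49). The part of these cells in the result was not tested.

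In DL-Ethionine short 1 of the 10 genes was called, Mdm2 (2.19% of all genes higher). Mdm2 was at 8.99, 9.91 and 9.62 in DL-Ethionine short, against 8.59, 8.67 and 8.42 in the control, 0.95 ± 0.20 higher (adjusted p = 0.00438). All 3 treated rats lay above the control rats, and the call was lost without replicate 2 (0.74, adjusted p = 0.0607) and with only the 2 groups fitted (adjusted p = 0.133). A second Mdm2 probe set gave 0.97 and was called, and the other gave 0.41 and was not called. DL-Ethionine short replicate 1 was the lowest of its group in Mdm2, Ccng1 and Aen. Without it Ccng1 (0.55, adjusted p = 0.0107) and Aen (0.59, adjusted p = 0.0244) were called as well, so 3 genes were. Cdkn1a was at 7.39, 7.73 and 7.73 in DL-Ethionine short, -0.72 ± 0.43 from control and not called. Long minus short, all 10 genes were higher in DL-Ethionine long (31.4% of all genes), with Cdkn1a at 5.51 ± 0.43 (45.6-fold). The short nongenotoxic groups also stood apart from their control in clock genes. Of 4 genes high with Bmal1, 2 were lower in 1,4-Dioxane short (3.86% of all genes), 1 in Clofibrate short (1.41%) and 3 in DL-Ethionine short (3.19%), with medians of -1.23, -1.17 and -1.29. The control rats were not alike in these genes: in the summed level of the 4 genes 1 rat of the genotoxic control was at log2 9.67 and the other two at 10.78 and 10.91, and 1 rat of the nongenotoxic control was at 9.83 and the other two at 10.72 and 10.78. Short and long groups differed in them as well. The median summed level was 9.28 in 1,4-Dioxane short and 10.70 in long, 9.63 and 11.01 in Clofibrate, and 9.49 and 10.83 in DL-Ethionine. The hour of sampling is not in the labels. Its part in the comparisons with a control, or between long and short groups, was not tested.

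The class difference sets the mean effect of the 3 genotoxic compounds against that of the 3 nongenotoxic compounds, each relative to its own control. Its SE and p rest on the spread between rats of a group, not on the spread between compounds of a class. They describe these compounds and not the classes at large. In the long groups 8 of the 10 genes were higher with the genotoxic compounds (8.07% of all genes), all but Tp53inp1 and Perp. Ccng1 was at 1.59 ± 0.17, Phlda3 at 1.44 ± 0.18, Mdm2 at 1.44 ± 0.23, Aen at 1.36 ± 0.21, Fas at 1.21 ± 0.22 and Cdkn1a at 2.58 ± 0.49. In no gene of the 10 did all 3 genotoxic differences lie above all 3 nongenotoxic ones. DL-Ethionine long lay above at least 1 genotoxic compound in every one of them, and above all 3 in Cdkn1a, Mdm2 and Tp53inp1, whereas 7.85% of all genes showed that separation. Mdm2, for example, was at 2.71, 3.21 and 1.96 in 2-AAF, 3MeDAB and DEN long, against 0.11, -0.28 and 3.72 in 1,4-Dioxane, Clofibrate and DL-Ethionine long. Without genotoxic control replicate 1 the Cdkn1a difference was 1.96 and was called. With DL-Ethionine left out, an alternative chosen after seeing the data, 9 genes were higher and the Cdkn1a difference was 4.19. Calls over all genes rose there too, to 2226 of 10662 either way against 1292. The Bbc3 call (0.63 ± 0.19, adjusted p = 0.031) was lost without any of 4 control rats (adjusted p up to 0.102). In the short groups 4 genes were higher (2.48% of all genes): Cdkn1a at 3.36 ± 0.50, Aen at 1.11 ± 0.22, Ccng1 at 0.93 ± 0.17 and Phlda3 at 0.88 ± 0.18. In 4 genes (Cdkn1a, Aen, Zmat3 and Tp53inp1) all 3 genotoxic short differences lay above the nongenotoxic ones, as they did in 15.6% of all genes.

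The test set holds no control, so each of its groups was set against the mean of the other 3 compounds at the same duration. Values of a group there depend on what the other compounds did. The most calls were in 2 groups, DCP short with 6 genes higher and 1 lower (13.5% of all genes higher and 28.5% lower) and Urethane long with 7 higher (6.09% of all genes).

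**Figure D4:**
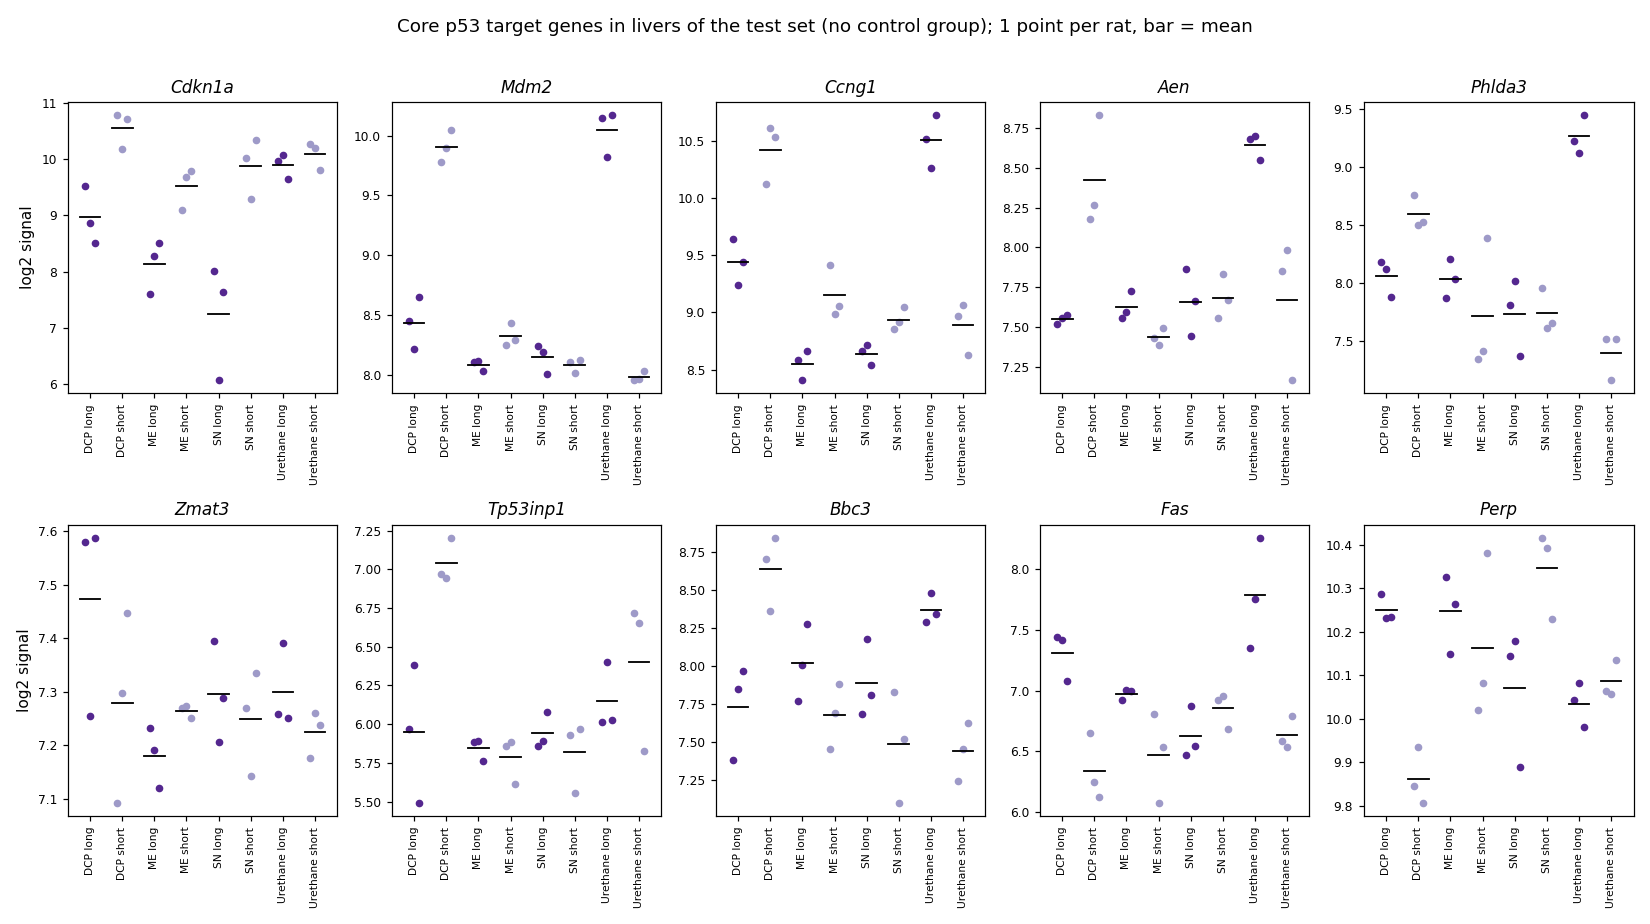
Log2 signal of each gene (1 panel per gene, vertical axis) in every rat of the test set, dark for long and light for short groups, 1 point per rat and a bar at the group mean. DCP short and Urethane long have the 2 highest means in Mdm2, Ccng1, Aen, Phlda3 and Bbc3.

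Mdm2 stood at 9.78, 9.89 and 10.04 in DCP short, against 8.25, 8.44 and 8.29 in ME short, 8.11, 8.02 and 8.12 in SN short and 7.96, 7.97 and 8.03 in Urethane short. All 3 DCP rats were at least 1.33 above every other short rat, and the difference was 1.77 ± 0.09 (3.41-fold, adjusted p = 1.54e-11). Ccng1 (1.43 ± 0.12), Bbc3 (1.10 ± 0.16), Tp53inp1 (1.04 ± 0.17), Phlda3 (0.98 ± 0.17) and Aen (0.83 ± 0.14) were higher as well. Cdkn1a was at 10.78, 10.19 and 10.70 in DCP short, against 9.10, 9.69 and 9.78 in ME short, 10.01, 9.30 and 10.33 in SN short and 10.28, 10.19 and 9.80 in Urethane short. Its groups overlapped and the difference of 0.73 ± 0.32 did not pass (adjusted p = 0.0785). Fas (-0.31 ± 0.16) did not pass either, and Perp was lower (-0.34 ± 0.07).

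In Urethane long, Mdm2 stood at 10.14, 9.82 and 10.17, against 8.45, 8.22 and 8.65 in DCP long, 8.11, 8.12 and 8.04 in ME long and 8.24, 8.19 and 8.01 in SN long. The lowest Urethane rat lay 1.17 above the highest rat of the other 3 groups, and the difference was 1.82 ± 0.09 (3.53-fold, adjusted p = 1.23e-10). Cdkn1a was at 9.96, 10.08 and 9.64 in Urethane long, against 9.53, 8.87 and 8.52 in DCP long, 7.60, 8.29 and 8.52 in ME long and 8.01, 6.07 and 7.65 in SN long, with no overlap and a difference of 1.78 ± 0.32. Ccng1 (1.63 ± 0.12), Phlda3 (1.32 ± 0.17), Aen (1.03 ± 0.14), Fas (0.82 ± 0.16) and Bbc3 (0.49 ± 0.16, adjusted p = 0.0468) were higher too, and Bbc3 lost its call without any of 8 rats (adjusted p up to 0.143). Zmat3, Tp53inp1 and Perp did not pass (-0.02 ± 0.08, 0.23 ± 0.17 and -0.15 ± 0.07). Of 8 macrophage markers 1 was lower in Urethane long (7.78% of all genes) and 0 were called in DCP short. In DCP short 3 of 4 clock genes high with Bmal1 were higher (13.5% of all genes) and 4 of 5 clock output genes were lower (28.5%) than in the other short groups, and the part of the sampling hour was not tested.

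The remaining test groups had calls in both directions or downward, which their partners in the mean also set. SN long had 5 genes lower (1.96% of all genes), with Cdkn1a at -1.76 ± 0.32, and ME long had 2 lower (1.35%). ME short had 3 lower (4.48%), Urethane short 3 lower (4.07%), SN short 1 higher and 3 lower (10.8% and 3.44%), and DCP long 1 higher and 2 lower (17.7% and 19.9%). Mdm2 was among the lower genes in all 6 of these groups. The count called was 3 in SN long without replicate 1 or 3, 0 in ME short without replicate 1 and 1 without replicate 3, 2 in SN short without replicate 2, and 1 in DCP long without any of its 3 rats.

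Long and short groups of 1 compound can be set against each other without the other compounds. In DCP, 6 genes were lower in the long group (14.2% of all genes), with Mdm2 at -1.46 ± 0.11 and Cdkn1a at -1.59 ± 0.39, and 2 were higher (25.7%), Fas at 0.97 ± 0.20 and Perp at 0.39 ± 0.09. In Urethane, 6 were higher in the long group (7.8% of all genes), with Mdm2 at 2.06 ± 0.11, Phlda3 at 1.87 ± 0.21 and Ccng1 at 1.62 ± 0.15. Cdkn1a was not among them: it stood at 9.96, 10.08 and 9.64 in Urethane long, against 10.28, 10.19 and 9.80 in Urethane short (-0.20 ± 0.39). Cdkn1a was lower in SN long than in SN short (-2.64 ± 0.39, adjusted p = 0.00118, or 0.0568 with only these groups fitted), the 1 gene called there (3.26% of all genes lower), and in ME long than in ME short (-1.39 ± 0.39, adjusted p = 0.0213). Ccng1 was the other gene lower in ME long (-0.60 ± 0.15; 8.2% of all genes). The ME count was 0 without ME long replicate 2 or with only these groups fitted, and 1 without ME short replicate 1 or 2 or ME long replicate 1. Without ME short replicate 3 the Cdkn1a call was lost too (-1.26, adjusted p = 0.0571), while Phlda3 was called higher in ME long (0.66, adjusted p = 0.012). In DCP the bile duct markers Epcam (1.43) and Spp1 (1.07) were higher in the long group and Cela1 was lower (-0.71), with a summed bile duct level of log2 8.96 to 9.54 in DCP long, against 7.89 to 8.16 in DCP short. In Urethane Epcam was higher in the long group (0.57). In ME, 7 of 8 macrophage markers were lower in the long group too (8.2% of all genes), and in Urethane 4 of 8 (5.91%), and the part of these cells in the results was not tested.

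Levels within a set can be put in order by group. 3MeDAB long was the highest group of the genotoxic set in all 10 genes, and DL-Ethionine long of the nongenotoxic set in all 10. Its margin over the next group was 0.40 in Perp and 4.19 in Cdkn1a, with no overlap of rats in any of the 10 genes. The share of all genes with the same order was not counted, so these counts have no background. Against control alone, all rats lay above in 43.6% of all genes in 3MeDAB long and 35.5% in DL-Ethionine long. In the genotoxic set the 3MeDAB long rats overlapped the next group in 4 genes, Cdkn1a (DEN long), Mdm2 (2-AAF long), Tp53inp1 (2-AAF short) and Bbc3 (DEN short). In the test set Urethane long was highest in Mdm2, Ccng1, Aen, Phlda3 and Fas, DCP short in Cdkn1a, Tp53inp1 and Bbc3, DCP long in Zmat3 and SN short in Perp, and only in Phlda3 and Tp53inp1 did the highest group not overlap the next. The spread between rats of a group was widest for Cdkn1a, with SDs of 1.10 in the genotoxic control, 1.03 in SN long and 0.95 in Clofibrate short, against 0.15 in DL-Ethionine long and 0.47 in 2-AAF short. Zmat3 and Perp varied least in the test set, where their group means lay between 7.18 and 7.47 and between 9.86 and 10.35.

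The values above come from 1 probe set per gene, the one with the highest mean: 1388674_at for Cdkn1a, 1383288_at for Mdm2, 1367764_at for Ccng1, 1383491_at for Aen, 1375224_at for Phlda3, 1387021_at for Zmat3, 1391826_at for Tp53inp1, 1382993_at for Bbc3, 1384842_s_at for Fas and 1372423_at for Perp. Genes with several probe sets showed where a call rests on one of them. Both Cdkn1a probe sets were called in the same groups except 3MeDAB short, where the second gave 1.00 and was not called. Of the 3 Mdm2 probe sets the weakest was not called in DEN long (0.72) or DEN short (1.00), where the other 2 gave 1.95 to 2.34. The second Aen probe set gave 0.52 in DEN long and was not called. Of the 3 Fas probe sets, 2 never rose above the median of the table in any array. Perp disagreed most: in DL-Ethionine long its main probe set was at 0.74 and the second at 0.04, not called, whereas in 3MeDAB long they gave 0.83 and 1.57, both called.

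Other genes of the pathway were taken from lists. Of 30 further p53 targets 18 were tested. The numbers called higher and lower are followed by the shares of all genes. They were 5 and 3 in 2-AAF long (16.5% and 16.6%), 9 and 2 in 3MeDAB long (36.9% and 17.7%), 8 and 2 in DEN long (10.5% and 6.56%), 2 and 0 in 2-AAF short (4.42% higher), 5 and 1 in DEN short (7.41% and 10.7%) and 10 and 3 in DL-Ethionine long (30.7% and 23.5%). They were 2 and 1 in DL-Ethionine short (2.19% and 3.19%), 2 and 1 in 1,4-Dioxane short (1.89% and 3.86%) and 1 and 1 in Clofibrate short (1.59% and 1.41%), and 0 of 18 were called in 3MeDAB short, 1,4-Dioxane long and Clofibrate long. In 2-AAF long the lower count lay near the share of all genes. Gdf15, a secreted stress cytokine, was higher in 6 of the 12 groups, by 2.12 ± 0.41 in 2-AAF long, 3.37 ± 0.41 in 3MeDAB long, 1.96 ± 0.41 in DEN long, 1.37 ± 0.41 in 2-AAF short, 3.66 ± 0.46 in DEN short and 3.72 ± 0.41 in DL-Ethionine long. In the test set it was higher in DCP short than in the other short groups by 5.10 ± 0.13 and in Urethane long than in the other long groups by 0.65 ± 0.13. Plk2, a polo-like kinase, was higher in 6 groups, among them DL-Ethionine long (3.41 ± 0.29) and DL-Ethionine short (1.35 ± 0.29). Pidd1, the scaffold of the PIDDosome, was higher by 2.23 ± 0.16 in 3MeDAB long and 1.88 ± 0.16 in DL-Ethionine long, and Sesn2, a stress-induced inhibitor of mTORC1, by 1.04 ± 0.19 and 1.18 ± 0.19. Gadd45a and Rprm also moved in groups where the 10 core genes were not called. Gadd45a, a growth arrest gene that stress also induces without p53, was higher in 1,4-Dioxane short (1.95 ± 0.42) and Clofibrate short (1.81 ± 0.42), and at 0.21 ± 0.42 in DEN long, not called. Rprm, an inhibitor of entry into mitosis, was lower in 1,4-Dioxane short (-1.94 ± 0.59) and Clofibrate short (-2.11 ± 0.59) and higher in DEN long (2.50 ± 0.59).

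Of a list of 14 genes of p53 regulation, 10 were tested in the sets with controls. In 3MeDAB long 4 were higher and 2 lower, near the shares of all genes (36.9% and 17.7%), and in DL-Ethionine long 4 were higher (30.7%). In 2-AAF long 1 was higher and 2 were lower, near the shares of all genes (16.5% and 16.6%). In DEN short 2 were lower (10.7% of all genes), and in 3MeDAB short 1 was lower (0.713% of all genes). Mdm4, the partner of Mdm2 that holds p53 inactive, was lower in 5 of 12 groups, at -1.26 ± 0.25 in 2-AAF long, -1.61 ± 0.25 in 3MeDAB long, -1.03 ± 0.25 in 3MeDAB short, -1.01 ± 0.25 in 1,4-Dioxane short and -1.03 ± 0.25 in Clofibrate short. In DL-Ethionine long, where all 10 core genes were higher, Mdm4 was at 0.00 ± 0.25. Hipk2, a kinase of p53, was lower in DEN short (-1.11 ± 0.22), 2-AAF long (-0.55 ± 0.20) and 3MeDAB long (-0.46 ± 0.20). Rchy1, a ubiquitin ligase for p53, was higher in 3MeDAB long (0.92 ± 0.12) and DL-Ethionine long (1.13 ± 0.12). Atr, the kinase that senses stalled replication, was higher in 2-AAF long (0.53 ± 0.16) and 3MeDAB long (0.57 ± 0.16). Cop1, another ligase for p53, was higher in 3MeDAB long (0.28 ± 0.08) and DL-Ethionine long (0.25 ± 0.08) and lower in DEN short (-0.52 ± 0.09). Ppm1d, the phosphatase that ends the damage signal, was called once, in DL-Ethionine long (1.03 ± 0.17).

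Likeness between profiles was measured as Pearson's r over 22 group means, each centred on the mean of its set. Group means of a set share their normalization, so r describes these groups and carries no test. Among the 45 pairs of the 10 genes the median r was 0.80, from 0.42 to 0.97. Against their own average, r was 0.974 for Aen, 0.973 for Ccng1, 0.965 for Mdm2, 0.963 for Phlda3, 0.929 for Zmat3, 0.894 for Bbc3, 0.884 for Cdkn1a, 0.851 for Fas, 0.848 for Tp53inp1 and 0.625 for Perp, each gene being part of that average. Perp ranked 1231 of 9973 genes by this measure, and within the 8 groups of the test set its r was -0.60. Zmat3 (0.18) and Fas (0.37) were also little alike there. Of genes outside the 10, the most alike were Mybl1 (0.952), Vxn (0.950), Gstm3 (0.948), Ascl2 (0.931), Bysl (0.930), Frmd8 (0.925), Fat1 (0.922), Mrto4 (0.912), Mrps6 (0.911) and Hnrnpab (0.910). Within the test set alone r was 0.47 for Ascl2, 0.45 for Frmd8 and 0.57 for Hnrnpab, and 0.73 or more for the other seven. Mybl1, a transcription factor of the MYB family, was chosen by this likeness, so its levels are a description: it differed from control by 4.44 in 2-AAF long, 6.56 in 3MeDAB long, 4.92 in DEN long, 4.90 in DEN short and 4.53 in DL-Ethionine long, and by 0.71 in 1,4-Dioxane long and -0.19 in Clofibrate long.

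**Figure D5:**
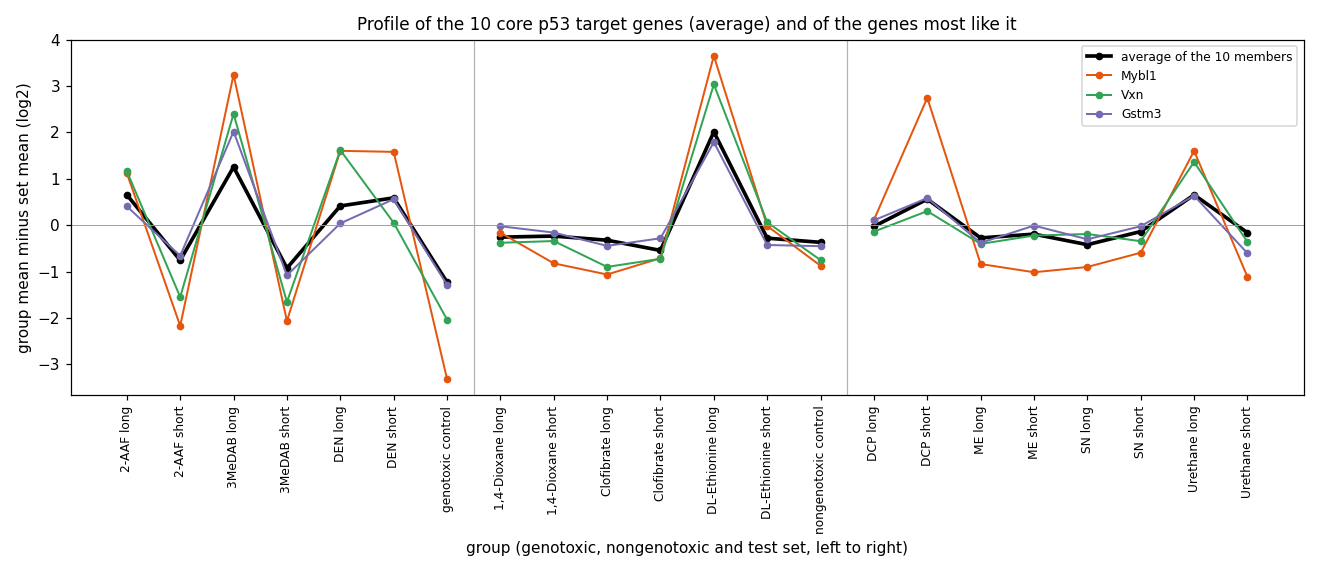
Group mean minus set mean (log2, vertical axis) of the average of the 10 core p53 targets (black) and of Mybl1, Vxn and Gstm3 over the 22 groups, with vertical lines between the genotoxic, nongenotoxic and test sets. The average peaks at 3MeDAB long and DL-Ethionine long in the first sets and at DCP short and Urethane long in the test set, and Mybl1 has a wider range than the average.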

How the data were processed

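Liver RNA of 65 rats was read on Affymetrix arrays, 1 array per rat. The deposited table holds log2 signals that the authors made with RMA, per the design text and the submitters' processing notes, for 31099 probe sets, of which 57 are control probe sets. Which arrays were normalized together is not stated. The platform annotation gives 20826 probe sets 1 gene symbol, 436 several and 9831 none. A gene was read at its probe set with the highest mean over the arrays of a fit, and genes at or below the table's median (6.22 in the sets with controls, 5.65 in the test set) in every array or all but 1 were left out. All 10 core genes passed, Tp53inp1 with every control array below that median.

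The genotoxic and nongenotoxic sets (41 arrays, 14 groups, 10662 genes, 27 residual degrees of freedom) and the test set (24 arrays, 8 groups, 10238 genes, 16 residual degrees of freedom) were fitted apart with limma 3.58.1 in R 4.3.3, with 1 mean per group and moderated by eBayes. P-values are two-sided and were adjusted by Benjamini-Hochberg over all genes of a comparison, and a call is an adjusted p under 0.05. A list is described by counts and medians only. The number of arrays limits the precision, and no values of 2 arrays were identical (highest r 0.99753). The fit was tested on simulated data. The rats' replicate numbers came from the titles, which call them biological.

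The alternatives were no filter, the mean of probe sets, 1 test per probe set, trend and robust variances, quantile normalization, a fit of the compared groups alone, the replicate number as a block and leaving out each rat. The 10 genes, the lists, the rule for named genes (up to 6 of each pathway list called in the most of the 12 comparisons with a control, and the 10 genes most like the core genes) and the other choices were made with earlier results of these data known.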

Additional observations from a re-analysis of the deposited data

Results flagged for a closer look

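The change from the short to the long group differed between genotoxic compounds, by the test of the difference itself (limma, with the Benjamini-Hochberg adjusted p under 0.05 over all genes). The duration effect of DEN minus that of 3MeDAB was -2.67 in Cdkn1a, -3.42 in Mdm2, -2.95 in Ccng1, -3.47 in Aen, -4.15 in Phlda3, -0.98 in Zmat3, -1.58 in Tp53inp1, -1.83 in Bbc3 and -2.29 in Fas on the log2 scale. For DEN minus 2-AAF it was -3.00 in Mdm2, -2.01 in Ccng1, -2.64 in Aen, -3.34 in Phlda3, -0.74 in Zmat3, -1.52 in Bbc3 and -2.03 in Fas. For 2-AAF minus 3MeDAB it was -2.03 in Cdkn1a, -0.94 in Ccng1, -0.83 in Aen, -0.80 in Phlda3, -1.33 in Tp53inp1 and -0.52 in Perp. All 22 values are negative, that is, the long minus short difference was lower in the compound named first. In DEN, Aen and Phlda3 were themselves lower in the long group. All long rats lay below the short rats in 6 of the 10 genes, as they did in 26.3% of all genes. They lay above the short rats in 2 of the 10, as they did in 34.3% of all genes. The 3 tests share their groups and are not independent, and DEN short holds 2 rats.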

How the results depend on the processing

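Of the 430 values of the 10 genes (10 genes in 43 comparisons), 219 were called. Under the alternatives other than leaving out rats, 3018 values were recomputed, of which 41 lost and 21 gained a call. Leaving out each rat in turn gave 3590 values, of which 98 lost and 22 gained a call. No called value changed sign, and 118 values called in neither fit did. Fitting only the groups compared, which leaves few residual degrees of freedom, moved most: the count of the 10 genes called was 0 against 1 in 3MeDAB short, 1 against 0 in 1,4-Dioxane short, 0 against 1 in DL-Ethionine short, 0 against 2 in ME long against short, 0 against 1 in SN long against short, 1 against 4 in DEN against 2-AAF long, 0 against 1 in DL-Ethionine against 1,4-Dioxane and Clofibrate short and 1 against 3 in ME short against the other test compounds. The mean of all probe sets gave 0 against 1 in DL-Ethionine short and in DL-Ethionine against 1,4-Dioxane and Clofibrate short, with Fas not tested in the test set. Quantile normalization of the columns gave 1 against 0 in Clofibrate long against short. No filter on low values and 1 test per probe set each ended 2 calls, and trend and robust variance estimates ended none.

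Leaving out 1 rat gave 0 to 1 of the 10 genes in 1,4-Dioxane long against short, 2 to 3 in 2-AAF short, 6 to 9 in 2-AAF against 3MeDAB long, 0 to 2 in 2-AAF against 3MeDAB short, 0 to 1 in 3MeDAB short, Clofibrate short and Clofibrate long against short, 1 to 3 in DCP long, 1 to 4 in DEN long against short and in DEN against 2-AAF long, 0 to 3 in DL-Ethionine short and in DL-Ethionine against 1,4-Dioxane and Clofibrate short, 0 to 2 in ME long against short, 0 to 3 in ME short, 3 to 5 in SN long, 2 to 4 in SN short and 2 to 4 in Urethane short. It gave 9 to 10 in 2-AAF long and DEN long, 10 in 3MeDAB long and DL-Ethionine long, 8 to 9 in DEN short, 7 to 8 in the class difference long and 6 to 7 in Urethane long. Over all genes, leaving out 1 rat moved the count of calls, and with it the shares printed beside the 10 genes, by over 1.5 times in 26 of 43 comparisons, among them 2-AAF short (405 to 1365 against 940), 3MeDAB short (12 to 173 against 104), DEN short (858 to 1512 against 1930), DL-Ethionine short (77 to 1175 against 574) and Urethane short against the other test compounds (196 to 881 against 778). The cause was not tested.

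Same-numbered rats did not deviate together: the median correlation of their deviations from the group means was 0.01 in the genotoxic set, 0.00 in the nongenotoxic set and -0.01 in the test set, so the numbers were not taken as pairs. With the replicate block, the 1,4-Dioxane long against short count was 0 against 1 and that of DL-Ethionine against 1,4-Dioxane and Clofibrate short 0 against 1, 5 values lost their call, and over all genes only 1 count moved by more than 1.5 times (114 against 190 in the last comparison).

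Over all genes, fitting only the groups compared called 417 against 940 in 2-AAF short, 5 against 104 in 3MeDAB short, 1220 against 3532 in 2-AAF long, 295 against 613 in 1,4-Dioxane short, 136 against 320 in Clofibrate short, 13 against 574 in DL-Ethionine short, 37 against 18 in 1,4-Dioxane long, 28 against 15 in Clofibrate long, 1123 against 3925 in 2-AAF long against short, 209 against 379 in Clofibrate long against short, 162 against 1736 in ME long against short, 229 against 512 in SN long against short, 762 against 1404 in Urethane long against short, 517 against 1362 in DEN against 2-AAF short, 371 against 1612 in DEN against 3MeDAB short, 0 against 194 in 2-AAF against 3MeDAB short, 1242 against 3375 in DEN against 2-AAF long, 2895 against 5300 in 2-AAF against 3MeDAB long, 0 against 190 in DL-Ethionine against 1,4-Dioxane and Clofibrate short, 1107 against 2875 in the duration effect of DEN against 2-AAF, 2060 against 4131 in the duration effect of 2-AAF against 3MeDAB, 430 against 945 in ME short against the other test compounds, 869 against 1460 in SN short against the other test compounds, 361 against 778 in Urethane short against the other test compounds, 333 against 533 in SN long against the other test compounds. Testing each probe set, that is more features, raised the count by over 1.5 times in 20 comparisons, from 36 against 18 in 1,4-Dioxane long to 10281 against 6619 in DL-Ethionine against 1,4-Dioxane and Clofibrate long. The mean of probe sets called 60 against 104 in 3MeDAB short, quantile normalization 24 against 15 in Clofibrate long, and the class difference long without DL-Ethionine 2226 against 1292. After quantile normalization the share of calls that were higher was 44.8% against 26.9% in 3MeDAB short, 58.1% against 68.2% in 3MeDAB long against short, 46.6% against 33.6% in DEN against 2-AAF short, 76.2% against 89.2% in 2-AAF against 3MeDAB short, 44.8% against 32.9% in DEN against 3MeDAB long, 44.6% against 29.4% in 2-AAF against 3MeDAB long, 45.7% against 28.2% in the duration effect of 2-AAF against 3MeDAB, 45.5% against 34.8% in SN long against short, 61.8% against 75.9% in SN short against the other test compounds, 58.5% against 46.4% in Urethane short against the other test compounds. The median of all genes in 3MeDAB long was 0.03 after it, against 0.14, and the 10 genes were called higher there under both. With 3 rats a group (2 in DEN short) differences of about 1 in Cdkn1a could go uncalled, given its SE of 0.43.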
